A study of Mus musculus with 8 samples.

Results

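Neutrophil and monocyte transcripts were followed through sorted regulatory T cells (Tregs). The set comprised 10 genes of the 55487 in each deposited table, picked by symbol: S100a8, S100a9, Ngp, Lcn2, Lyz2, Tyrobp, Fcer1g, Cd14, Csf1r and Itgam. The set was chosen with the levels of these genes in these libraries known. Those levels are therefore given as a description, library by library. Tests run over all genes took in some of the members, and nothing about the members is read from their calls.

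The study compared splenic Tregs of C57BL/6 mice labelled SRC-3KO with control Tregs, to find out how loss of the coactivator SRC-3 (gene Ncoa3) changes the Treg transcriptome. Its 8 SMART-Seq libraries (full-length cDNA amplified from little RNA) cover both genotypes in tumor-bearing and in tumor-free mice, with 2 replicates in each of the 4 groups. Both tumor-bearing controls and no-tumor control replicate 2 are named for Foxp3-Cre, a recombinase driven by the Treg gene Foxp3. No-tumor control replicate 1 is named as wild type (WT), and it is the only library whose source label lacks GFP, the marker used for sorting. Both no-tumor SRC-3KO libraries carry Tam1 in their names, a term the labels do not explain. The labels state neither the tumor type, nor the age of the mice, nor how SRC-3 was deleted. They also do not say whether replicates came from separate animals, so p-values measure the spread between libraries, part of which may be technical.

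Levels without a tumor are CPM, a gene's counts scaled to its library's total, which lay between 24159217 and 31075452 counts. Levels with a tumor are FPKM, fragments scaled to transcript length and library size, which summed to 408458 to 514349 in a library, at an unknown depth. No library is in both tables, so no level was compared between tumor and no tumor. By the number of genes far above the other libraries of their table, no-tumor control replicate 1 and tumor control replicate 2 stood apart. Treg markers were present in all 8 libraries. Foxp3, which defines the lineage, ranged from 9.33 to 22.3 CPM in the tumor-free libraries other than control replicate 1, which held 230.0 CPM, and from 14.7 to 28.8 FPKM with a tumor. Il2ra, the IL-2 receptor alpha chain, ranged from 1046 to 1831 CPM and from 290.7 to 621 FPKM. The targeted gene Ncoa3 was lower in both tumor-free SRC-3KO libraries (39.8 and 24.5 CPM) than in their controls (131 and 58.7 CPM), a log2 difference of -1.48 (edgeR adjusted p = 0.910). With a tumor Ncoa3 overlapped between the groups, at 47.5 and 27.7 FPKM in SRC-3KO replicates 1 and 2 and 37.7 and 45.4 FPKM in control. The level of Ncoa3 thus did not separate the tumor libraries by label. Gene-level values cannot show a deleted exon, and every genotype named below is that of the label.

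S100a8 and S100a9 form calprotectin, a calcium-binding and metal-sequestering complex that is among the most abundant proteins of neutrophils and is also made by classical monocytes. Ngp and Lcn2 are proteins of the neutrophil's secondary granules, which are filled while the cell matures in the marrow. Lyz2, a lysozyme, is shared by neutrophils, monocytes and macrophages. Tyrobp (DAP12) and Fcer1g are membrane adaptors whose ITAM motifs pass signals from activating receptors to the kinase Syk, in myeloid cells and in natural killer (NK) cells. Cd14, Csf1r and Itgam are surface receptors of monocytes and macrophages, and Itgam is also carried by neutrophils. None of these genes belongs to the core Treg program, and a spleen holds neutrophils and several kinds of macrophage.

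The promoters of S100a8, S100a9, Ngp and Lyz2 are shown because the first 3 were highest in the same library of each table, while Lyz2 was not highest there without a tumor. RefSeq promoters (GRCm38.p6, the mm10 assembly) matched 7 of the 10 genes. Each line gives the bases before the earliest GENCODE start, on the gene's own strand, with capitals marking a match to C/EBP (TTGCNNAA) or PU.1 (GAGGAAG), factors of myeloid cells, on either strand. The intervals are chr3:90668821-90668977 for S100a8 (plus strand), chr3:90695722-90695971 for S100a9 (minus strand), chr9:110419558-110419746 for Ngp (plus strand) and chr10:117282322-117282522 for Lyz2 (minus strand).
S100a8: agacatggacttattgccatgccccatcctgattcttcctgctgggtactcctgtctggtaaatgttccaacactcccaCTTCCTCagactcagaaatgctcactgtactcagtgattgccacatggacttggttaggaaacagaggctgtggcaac
S100a9: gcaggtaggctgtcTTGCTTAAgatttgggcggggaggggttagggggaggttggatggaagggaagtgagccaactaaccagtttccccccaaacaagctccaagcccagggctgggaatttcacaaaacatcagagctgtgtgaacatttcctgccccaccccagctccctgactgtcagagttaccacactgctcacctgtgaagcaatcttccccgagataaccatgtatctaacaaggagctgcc
Ngp: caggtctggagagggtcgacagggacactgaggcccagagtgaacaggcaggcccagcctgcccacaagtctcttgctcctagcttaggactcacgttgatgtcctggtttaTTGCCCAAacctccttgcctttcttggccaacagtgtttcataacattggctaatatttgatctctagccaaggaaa
Lyz2: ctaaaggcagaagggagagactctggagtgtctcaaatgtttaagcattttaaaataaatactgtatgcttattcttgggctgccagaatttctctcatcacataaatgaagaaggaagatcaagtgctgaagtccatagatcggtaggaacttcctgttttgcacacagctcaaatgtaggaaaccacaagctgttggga

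Over the full 250 bases before each RefSeq start, Ngp held 2 C/EBP matches, of which 1 lies past the printed bases, and S100a9 and Lcn2 1 each. S100a8, Lcn2 and Itgam held 1 PU.1 match each, and Lyz2 and Fcer1g held none of either. Of 32851 mouse promoter windows of that length, 9.56% held the C/EBP letters and 10.6% the PU.1 letters. S100a8 (694 bases of exon) and S100a9 (522 bases) lie 22596 bases apart on chromosome 3. By GENCODE (mm10), Lcn2 lies at chr2:32384633-32388252 and Itgam at chr7:128062640-128118491. The adaptor genes lie at chr7:30413760-30417585 (Tyrobp) and chr1:171229572-171234365 (Fcer1g), and Cd14 and Csf1r are on chromosome 18. Counts and FPKM cover whole genes, so no exon or UTR can be told apart.

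With a tumor, all 10 transcripts were high in control replicate 2 and far lower in the other control and in both SRC-3KO libraries, where 8 of them stayed below 2 FPKM. Summed over the 10 genes, control replicate 2 held 6143 FPKM, 1.33% of its FPKM sum. Control replicate 1 held 20.5 FPKM, SRC-3KO replicate 1 held 7.27 FPKM and SRC-3KO replicate 2 held 5.53 FPKM. The difference between the controls was thus far larger than that between control replicate 1 and either SRC-3KO library. In bulk RNA, fewer cells of a type and less RNA per cell cannot be told apart.

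S100a8 stood at 1851 FPKM in control replicate 2, at 1.38 FPKM in control replicate 1, at 0.872 FPKM in SRC-3KO replicate 1 and at 0 in SRC-3KO replicate 2. S100a9 stood at 1570 and 1.55 FPKM in control replicates 2 and 1, and at 0.414 and 0 FPKM in SRC-3KO replicates 1 and 2. Control replicate 2 thus exceeded the next library 1344-fold for S100a8 and 1016-fold for S100a9. Ngp, a granule protein of the cathelicidin family, stood at 413 FPKM in control replicate 2, 0.537 in control replicate 1, 0.274 in SRC-3KO replicate 1 and 0 in SRC-3KO replicate 2. Lcn2, which binds bacterial siderophores, stood at 142 FPKM in control replicate 2 and was listed at 0 in control replicate 1 and SRC-3KO replicate 2, with 0.0807 FPKM in SRC-3KO replicate 1. In these granulocyte genes SRC-3KO replicate 2 was listed at 0 throughout, and control replicate 1 lay at or below 1.55 FPKM.

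Lyz2 stood at 1108 FPKM in control replicate 2, against 0.404 FPKM in control replicate 1 and 0.771 and 0.770 FPKM in SRC-3KO. Its tandem copy Lyz1, 5475 bases away on chromosome 10, stood at 45.7 FPKM in control replicate 2, and reads could be split between the copies, so the Lyz2 level is uncertain. Leaving control replicate 2 aside, Lyz2 in SRC-3KO lay slightly above control replicate 1, the opposite order to S100a8.

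The adaptors were the only members with a level above 2 FPKM outside control replicate 2. Tyrobp stood at 433 FPKM in control replicate 2, 2.73 in control replicate 1, 0.291 in SRC-3KO replicate 1 and 1.41 in SRC-3KO replicate 2. Fcer1g stood at 473 FPKM in control replicate 2, 13.9 in control replicate 1, 4.44 in SRC-3KO replicate 1 and 3.23 in SRC-3KO replicate 2. Control replicate 2 exceeded the next library 158-fold for Tyrobp and 34.1-fold for Fcer1g, the smallest ratios of the 10 genes. Both adaptors kept the order of control above SRC-3KO in both libraries.

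Among the receptors, Cd14, the lipopolysaccharide co-receptor, stood at 68.4 FPKM in control replicate 2, 0 in control replicate 1, and 0.107 and 0.0590 in SRC-3KO. Csf1r, the receptor for the macrophage growth factor CSF1, stood at 57.7 FPKM in control replicate 2, 0.0558 in SRC-3KO replicate 2 and 0 in the remaining libraries. Itgam, the CD11b integrin chain, stood at 26.6 FPKM in control replicate 2, 0.0181 in SRC-3KO replicate 1 and 0 in the others. All 3 receptors were thus listed at 0 in control replicate 1. Within control replicate 2 the 4 granulocyte genes S100a8, S100a9, Ngp and Lcn2 summed to 3976 FPKM and the 3 receptors to 153 FPKM, a ratio of 26.0.

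**Figure D1:**
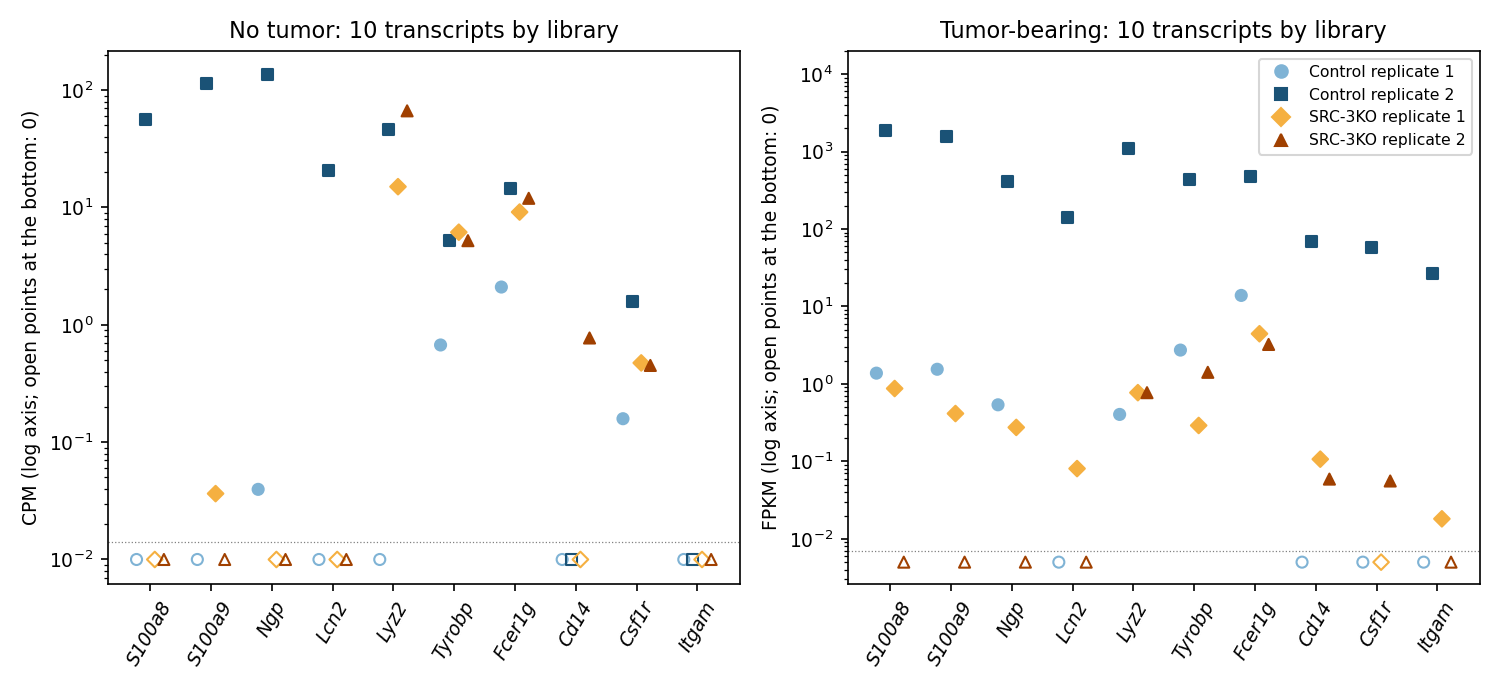
Level of each of the 10 transcripts (x axis) in each library, in CPM without a tumor (left) and FPKM with a tumor (right), on log axes with values of 0 drawn as open points at the bottom. With a tumor control replicate 2 (dark squares) stands above the other 3 libraries for all 10 genes, and without a tumor it does so by a wide margin for S100a8, S100a9, Ngp and Lcn2.

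Without a tumor, the 4 granulocyte genes were again present in control replicate 2 and nearly absent elsewhere, while the 3 receptors were close to 0 in all 4 libraries. S100a8 had 1361 counts (56.3 CPM) in control replicate 2 and 0 in the other 3 libraries. A count of 0 allows up to 3 counts, or 0.119 CPM in the shallowest of these, so S100a8 was at least 474-fold higher in control replicate 2. S100a9 had 2763 counts (114 CPM) in control replicate 2, 1 count in SRC-3KO replicate 1 and 0 in the others. Ngp had 3254 counts (135 CPM) in control replicate 2, 1 count in control replicate 1 and 0 in both SRC-3KO libraries. Lcn2 had 496 counts (20.5 CPM) there and 0 elsewhere, at least 173-fold higher by the same floor. Control replicate 1 and the SRC-3KO libraries thus did not differ detectably in these genes at this depth.

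Lyz2 broke with this pattern. It had 2070 counts (66.6 CPM) in SRC-3KO replicate 2, 1108 (45.9 CPM) in control replicate 2, 413 (15.04 CPM) in SRC-3KO replicate 1 and 0 in control replicate 1. The highest level was thus in a library with 0 counts of all 4 granulocyte genes, and the groups overlapped. Lyz1 had 0 counts in all 4 libraries.

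Fcer1g and Tyrobp were low but present in every no-tumor library. Fcer1g stood at 14.7 CPM in control replicate 2, 12.0 and 9.14 CPM in SRC-3KO replicates 2 and 1, and 2.10 CPM in control replicate 1. Tyrobp stood at 6.16 and 5.21 CPM in SRC-3KO replicates 1 and 2, 5.26 CPM in control replicate 2 and 0.673 CPM in control replicate 1. For both adaptors 3 libraries lay close together and control replicate 1 lay below them. The 95% exact binomial interval for Tyrobp was 0.392 to 1.08 CPM in control replicate 1 and 4.38 to 6.25 CPM in control replicate 2. Such intervals, and the floor of 3 counts, cover counting error only.

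Csf1r had 38 counts in control replicate 2 (1.57 CPM, exact interval 1.11 to 2.16), 13 and 14 in SRC-3KO replicates 1 and 2 (0.474 and 0.451 CPM) and 4 in control replicate 1 (0.158 CPM). Cd14 had 24 counts in SRC-3KO replicate 2 (0.772 CPM) and 0 elsewhere. Itgam had 0 counts in all 4 libraries. Control replicate 2, with 7874 counts of the granulocyte genes, thus had 38 counts of the receptors, and SRC-3KO replicate 2, with 0 of the former, also had 38. Scaled to exon length, granulocyte genes exceeded receptors 1536-fold in no-tumor control replicate 2. That ratio rests on 38 receptor counts, all of Csf1r. It cannot be set against the ratio of 26.0 in tumor control replicate 2, which is in FPKM. Summed over the 10 genes, no-tumor control replicate 2 held 393 CPM, 0.0393% of its counts, SRC-3KO replicates 2 and 1 held 85.0 and 30.9 CPM, and control replicate 1 held 2.97 CPM.

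The genotype comparison made on all genes could take in only some of these transcripts. Without a tumor the filter on low counts passed Lyz2, Tyrobp, Fcer1g and Csf1r, and with a tumor it passed S100a8, S100a9, Tyrobp and Fcer1g. A gene that reaches the filter's minimum level in 1 library alone, or in none, does not pass, so 6 of the 10 were left out in each table. The log2 difference of SRC-3KO over control (edgeR, no tumor) was 1.05 (SE 2.26) for Lyz2, 1.10 (SE 1.29) for Tyrobp, 0.51 (SE 1.12) for Fcer1g and -0.73 (SE 1.77) for Csf1r. With a tumor it was -5.60 (SE 2.95) for S100a8, -5.73 (SE 2.84) for S100a9, -4.51 (SE 2.12) for Tyrobp and -4.13 (SE 1.54) for Fcer1g (limma, on the log2(FPKM + 1) scale).

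The size of these tumor differences rested on control replicate 2. The median of the tested members was -5.06, and without that library it was -1.36, over the 2 still tested, Tyrobp and Fcer1g. Tyrobp went from -4.51 to -1.08 and Fcer1g from -4.13 to -1.63, so both stayed lower in SRC-3KO. S100a8 and S100a9 could not be tested without it. The median over all 12859 genes tested was -0.02. With all tumor libraries kept, limma called 0 of the members, where 0.109% of all genes were called (0.0156% as higher and 0.0933% as lower in SRC-3KO). With 1 tumor control left out it did call adaptors as lower in SRC-3KO: Fcer1g in either case, and Tyrobp without control replicate 1. Such fits kept 1 control, and nothing is read from those calls. Without a tumor 0 members were called by edgeR or DESeq2. There edgeR called 0% of 14860 genes, 472 of which had an unadjusted p under 0.05, and DESeq2 called 86. With no filter on low counts edgeR called S100a8, S100a9, Ngp and Lcn2 as lower in SRC-3KO, as it did 0.226% of 26500 genes. Without no-tumor control replicate 1 it called S100a9 as lower, the 1 gene called of 15919 (0.00628%). Without no-tumor control replicate 2 it called Lyz2, Tyrobp and Fcer1g as higher, as it did 22.2% of 16963 genes. Both SRC-3KO libraries lay below both controls for S100a8, S100a9, Ngp, Tyrobp and Fcer1g with a tumor (24.9% of genes tested did so). Without a tumor this held for Ngp alone (21% of genes tested did so), where it rested on 1 count in control replicate 1. The members' choice used these values, and nothing is read from these counts.

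Other genes of the same cells were taken from lists that exclude the 10 members. Of 23 genes of neutrophil granules and maturation, 17 reached 1 FPKM in tumor control replicate 2, and each of these 17 was highest there. In the other tumor libraries 1 to 4 reached it. The list summed to 921 FPKM in control replicate 2 and to 29.8 to 41.5 FPKM elsewhere. Most of the sum elsewhere was Pglyrp1, at 22.7 FPKM in control replicate 1 and 39.7 and 28.8 FPKM in SRC-3KO replicates 1 and 2. Pglyrp1 stood at 63.0 FPKM in control replicate 2. Chil3 (a chitinase-like protein) stood at 145 FPKM in control replicate 2 and 0 in control replicate 1, with 0.0481 and 0.196 FPKM in SRC-3KO. Ltf (lactoferrin, a secondary granule protein) stood at 84.7 and 0.347 FPKM in control replicates 2 and 1, with 0 and 0.0611 FPKM in SRC-3KO. Retnlg, a neutrophil secreted protein, stood at 47.0 and 1.26 FPKM in the controls and at 0 in SRC-3KO. The primary granule enzymes Elane, Mpo, Ctsg and Prtn3, made by neutrophil precursors, were listed at 0 in all 4 tumor libraries (these 4 genes were chosen after their values were seen).

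In no-tumor control replicate 2 the granule list held 154 CPM, against 13.4 to 40.5 CPM in the other libraries, and 11 of its 23 genes reached 1 CPM. Chil3 stood at 36.3 CPM in control replicate 2, with 0 counts elsewhere. Camp, a cathelicidin antimicrobial peptide, stood at 27.3 CPM there, at 0.0322 CPM in SRC-3KO replicate 2 and at 0 in the remaining libraries. Anxa1, an annexin that lymphocytes also express, stood at 44.0 CPM, against 0.740 to 2.91 CPM. Ltf, Retnlg and the neutrophil growth factor receptor Csf3r, all present in tumor control replicate 2, were at 0.0828, 0 and 0 CPM there. Of the primary granule enzymes Prtn3 had 51 counts (2.11 CPM) in control replicate 2, 10 counts in control replicate 1 and 0 in SRC-3KO, and Elane, Mpo and Ctsg had 0 in all 4. No-tumor control replicate 2 thus held some secondary granule genes without others.

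Of 19 neutrophil receptor and signal genes, 18 reached 1 FPKM in tumor control replicate 2 and 4 in each of the other tumor libraries. Of these 18, 14 were highest in control replicate 2. Csf3r stood at 34.9 FPKM there and at 0 to 0.180 FPKM elsewhere, Clec4e (a receptor that signals through Fcer1g) at 83.1 and 0 to 0.333 FPKM. The formyl peptide receptor Fpr1 and the cytokine Il1b stood at 60.6 and 72.5 FPKM there and at or below 0.0692 FPKM elsewhere. In no-tumor control replicate 2 only 3 of the 19 reached 1 CPM. Among the 4 that were highest elsewhere, the adhesion ligand Selplg stood at 368 and 322 FPKM in control replicates 1 and 2 and 283 and 233 FPKM in SRC-3KO. The cytokine genes Cxcl2 and Osm were the others besides Il1r2 (both chosen after their values were seen), each at or below 9.30 FPKM in every tumor library. The decoy receptor Il1r2 stood at 452 and 334 FPKM in SRC-3KO and 131 and 157 FPKM in control with a tumor. Its log2 difference was 1.43 (SE 0.25, limma adjusted p = 0.141, not called). Without a tumor Il1r2 stood at 124 and 146 CPM in SRC-3KO replicates 1 and 2, which held 1 and 0 counts of the granulocyte genes. In no-tumor control replicates 1 and 2 it stood at 2.38 and 77.1 CPM.

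Of 28 monocyte and macrophage genes, 24 reached 1 FPKM in tumor control replicate 2, against 9 to 11 in the other tumor libraries, and all 24 were highest there. The list summed to 2765 FPKM in control replicate 2 and 203 to 223 FPKM elsewhere. Ctss, a lysosomal protease that B cells also make, stood at 846 FPKM in control replicate 2 and 102 to 109 FPKM elsewhere. Lgals3 (galectin 3) stood at 389 FPKM in control replicate 2, 25.0 in control replicate 1 and 7.16 and 2.78 in SRC-3KO. Clec7a, the beta-glucan receptor Dectin-1, stood at 255 FPKM there and at or below 0.493 FPKM elsewhere. Ly6c2, a marker of classical monocytes, stood at 245 and 17.5 FPKM in control replicates 2 and 1 and at 1.76 and 4.88 FPKM in SRC-3KO. Ly6c2 is also expressed by T cells.

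Without a tumor the monocyte list took another course, with 1527 CPM in control replicate 1 and 249 to 357 CPM in the other 3 libraries. Lgals3 alone held 1100 CPM in control replicate 1 and 17.2 to 32.5 CPM elsewhere, and the transcription factor Cebpb 359 CPM against 33.1 to 40.5 CPM. Activated T cells can express both genes. In that same library Lyz2 had 0 counts, Csf1r 4 and Cd14 and Itgam 0. Control replicate 2 had 0 counts of 17 of the 28 genes.

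With the filters given, none of the genes on these neutrophil and monocyte lists was called by limma with a tumor or by edgeR without one. Other settings made calls: Camp and Chil3 as lower by edgeR with no filter, Lgals3 as lower by DESeq2 without a tumor, and Ly6c2 as lower by limma with a replicate block. Of the granule list 4 of 23 could be tested with a tumor (median log2 difference -3.12) and 7 without (median -1.55). Of the monocyte list 11 of 28 could be tested with a tumor (median -1.78) and 17 without (median 0.67). The median over all genes tested was -0.02 in each state. Without tumor control replicate 1, where control replicate 2 was the only control, limma called monocyte genes and Anxa1 as lower in SRC-3KO. Lgals3, Ly6c2 and Ms4a4c, a membrane protein (chosen after its values were seen), were called lower there and also without control replicate 2. In that latter fit Il1r2 and Cxcl2 of the neutrophil receptor list were called as higher. Without no-tumor control replicate 2, edgeR calls on these lists went in both directions. Such fits kept 1 control, and some of them called a large share of all genes tested. Nothing about these lists is read from those calls.

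**Figure D2:**
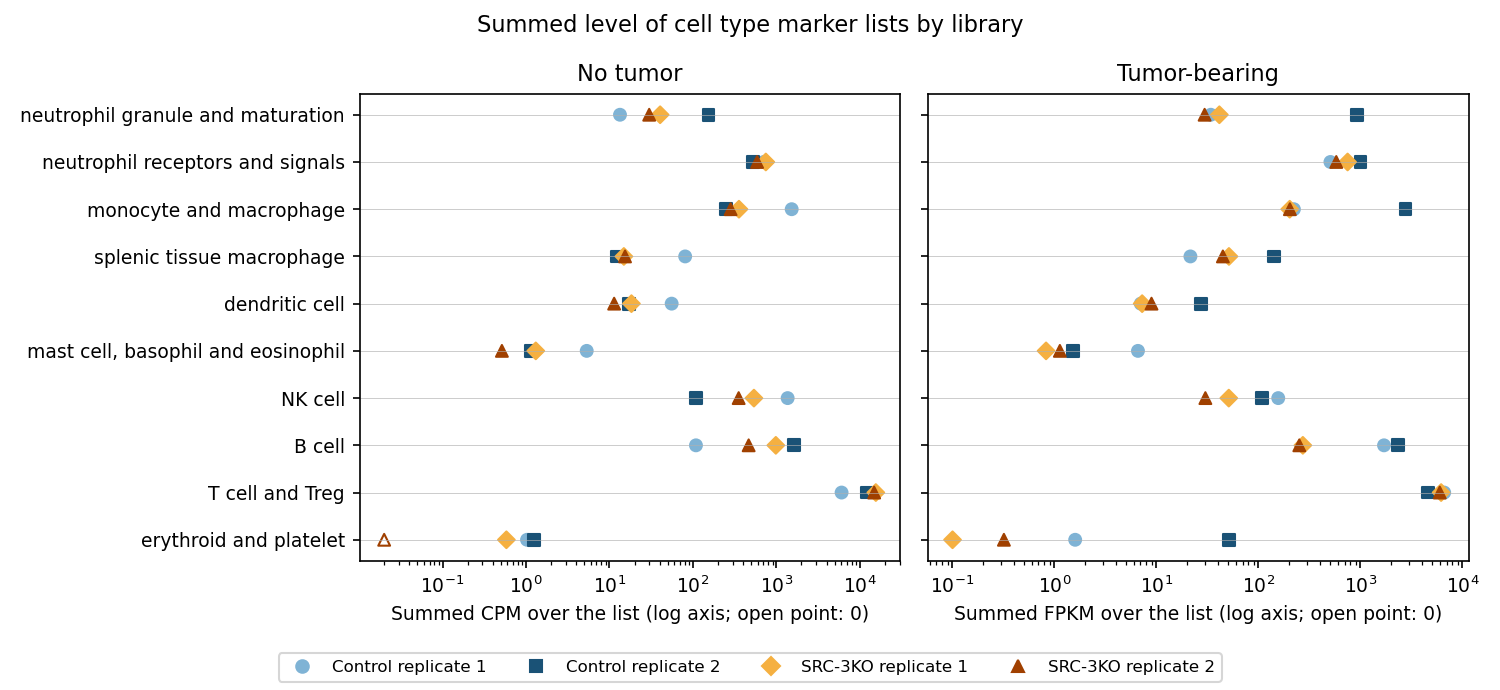
Summed level of each marker list (rows) in each library, in CPM without a tumor (left) and FPKM with a tumor (right), on log axes with a sum of 0 drawn as an open point. With a tumor control replicate 2 (dark squares) is highest for the granule list (921 FPKM) and the monocyte list (2765 FPKM), and without a tumor it is highest for the granule list (154 CPM) but not for the monocyte list.

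Partners of the members differed in how far they followed them. The beta-2 chain Itgb2, with which Itgam pairs, is also the partner of the lymphocyte chain Itgal, and it was present in all libraries at 169 to 287 FPKM and 70.9 to 223 CPM. Its highest tumor level was in control replicate 2 (287 FPKM). Of 20 ITAM adaptors and partners of Tyrobp and Fcer1g, 18 reached 1 FPKM in tumor control replicate 2 and 3 in each other tumor library. The Fc receptor Fcgr3, which needs Fcer1g at the surface, stood at 73.8 FPKM there and at or below 0.413 FPKM elsewhere. The T cell receptor zeta chain Cd247 and Hcst (DAP10), ITAM and related adaptors of lymphocytes, stood at 143 to 182 and 60.7 to 80.2 FPKM in all 4 tumor libraries.

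The CSF1 receptor's ligand Csf1 stood at 7.56 to 10.7 FPKM in the 4 tumor libraries, with no excess in control replicate 2 (9.36 FPKM). Without a tumor Csf1 stood at 25.8 CPM in control replicate 1 and 0.621 to 3.06 CPM elsewhere. Tlr4, which Cd14 serves, stood at 7.46 FPKM in tumor control replicate 2 and at 0.0640 to 0.441 FPKM elsewhere (chosen after its values were seen). Its co-receptor Ly96 (MD-2) was present in all 4, at 6.71 to 9.57 FPKM. Of the NADPH oxidase, the membrane subunit Cybb stood at 95.0 FPKM in control replicate 2 and 1.68 to 2.21 FPKM elsewhere, and Cyba, shared with lymphocytes, at 895 and 446 to 561 FPKM. With the filters given, none of the genes on the calprotectin, CSF1 receptor, ITAM, integrin and oxidase lists was called by edgeR or limma. DESeq2 called 1 gene of the calprotectin list without a tumor, the receptor gene Ager, as lower (chosen after its call was seen). With a control library left out, genes on each of these lists were called in at least 1 fit. Such fits kept 1 control, and some of them called a large share of all genes tested. Nothing about these lists is read from those calls.

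Markers of further cell types moved with the members in tumor control replicate 2. Haemoglobin and platelet genes summed to 51.2 FPKM there and to 0.101 to 1.60 FPKM elsewhere, with Hba-a1 at 17.1 and Hbb-bs at 15.2 FPKM. Tissue macrophage genes summed to 143 FPKM, against 21.6 to 51.5 FPKM, with the complement gene C1qb at 13.5 FPKM there and at or below 0.119 elsewhere. Dendritic cell genes summed to 27.6 FPKM, against 7.05 to 8.97 FPKM. The T cell and Treg list was lowest in that library, at 4602 FPKM against 6010 to 6640 FPKM. Without a tumor that list was lowest in control replicate 1, at 6049 CPM against 12178 to 15559 CPM. The members' sum was also lowest in that no-tumor library, at 2.97 CPM. The part of other cells in the members' levels was not tested.

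B cell genes, like the members, were highest in control replicate 2 of both tables, but in tumor control replicate 1 they departed from them. They were high in both tumor controls (1707 and 2360 FPKM) and lower in SRC-3KO (273 and 252 FPKM), while control replicate 1 held 20.5 FPKM of the members. Igkc (log2 difference -5.34, SE 0.39, adjusted p = 0.030), Jchain (-5.39, SE 0.32, adjusted p = 0.020) and Cd79a (-2.96, SE 0.24, adjusted p = 0.041) fell in SRC-3KO by limma. With no filter on low values the adjusted p of all 3 was 0.278, and with a pseudocount of 0.1 it was 0.111 for Jchain and 0.0632 for Cd79a. Without a tumor the B cell list was highest in control replicate 2 (1627 CPM), with 986 and 466 CPM in SRC-3KO and 109 CPM in control replicate 1. NK cell genes, whose cells use Tyrobp and Fcer1g, summed to 157 and 109 FPKM in tumor control replicates 1 and 2 and to 51.4 and 30.3 FPKM in SRC-3KO, so that, as for both adaptors, both controls lay above both SRC-3KO libraries. Without a tumor they were highest in control replicate 1 (1366 CPM), where both adaptors were lowest. Of that sum 1320 CPM was Nkg7, a granule protein that activated T cells also express. With a tumor Nkg7 likewise made up most of each NK sum. Its levels were 151 FPKM (control replicate 1), 92.3 FPKM (control replicate 2), 50.4 FPKM (SRC-3KO replicate 1) and 28.1 FPKM (SRC-3KO replicate 2). Among the other NK genes only Prf1 and Gzma reached 1 FPKM in any tumor library, and both were higher in both controls. Both controls lay above both SRC-3KO libraries for 24.9% of all genes tested with a tumor. The part of NK cells in the adaptors' levels was not tested. Ncr1, which marks NK cells, had 84 counts in no-tumor SRC-3KO replicate 1 and 0 in the other 3 libraries (chosen after its values were seen).

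The genes nearest in pattern to S100a9 were found by the root mean square difference of log2(value + 1), centred on each gene's mean in each table, over all 8 libraries and 11944 other genes. The nearest 8 were S100a8 (0.33), Ngp (0.54), Chil3 (1.10), Lcn2 (1.20), Camp (1.43), the chemokine Ccl24 (1.69), the protease inhibitor Slpi (1.94) and Anxa1 (2.03). Smaller values mean closer patterns. Ccl24, a chemokine of eosinophils, stood at 22.0 CPM in no-tumor control replicate 2 and 69.7 FPKM in tumor control replicate 2, and at or below 1.74 CPM and 0.478 FPKM elsewhere. The members Lyz2, Tyrobp, Fcer1g and Csf1r ranked 14, 16, 18 and 22, Cd14 and Itgam 37 and 60.

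Of the 8 genes nearest to Csf1r, 7 are given: Wfdc21 (0.18), the collagenase Mmp8 (0.19), Mcemp1 (0.29), Fpr1 (0.30), Il1b (0.32), Lyz1 (0.32) and Ltf (0.32). These 7 stood between 41.2 and 84.7 FPKM in tumor control replicate 2 and at or below 2.15 CPM in every no-tumor library. Of these 7, Wfdc21, Mmp8, Mcemp1 and Ltf are on the neutrophil granule list. Cd14 and Itgam ranked 20 and 23, Fcer1g and Tyrobp 68 and 107, and Lcn2 256. Lyz2, S100a8, Ngp and S100a9 ranked 3570, 8406, 8685 and 11294 of 11944, at distances of 1.86, 2.03, 2.04 and 2.24. The distance of 2.24 between S100a9 and Csf1r is the same that gave Csf1r rank 22 from S100a9. Ranks from S100a9 and ranks from Csf1r can therefore not be compared with each other.

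**Figure D3:**
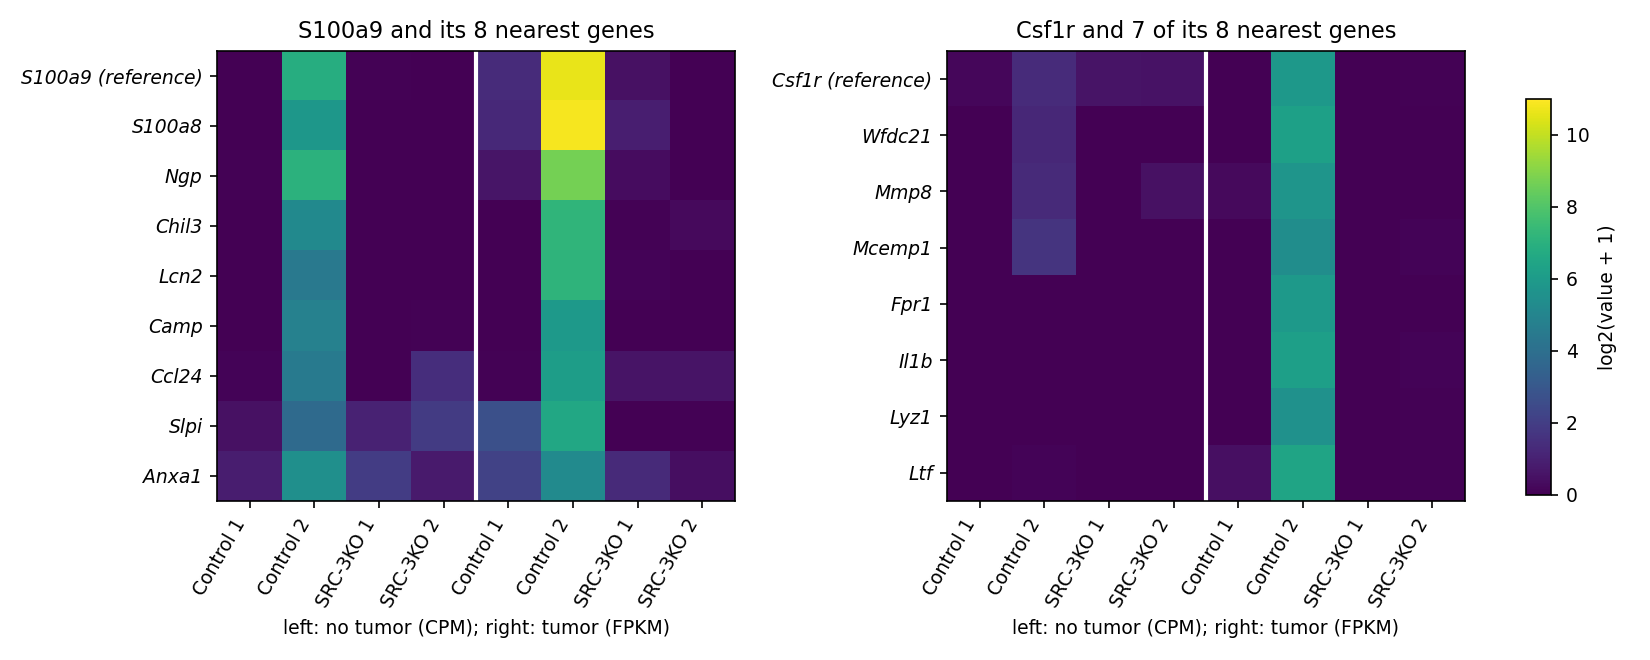
Level as log2(value + 1) (colour) of S100a9 and its 8 nearest genes (left) and of Csf1r and 7 of its 8 nearest genes (right) in each library, CPM without a tumor left of the white line and FPKM with a tumor right of it. The S100a9 neighbours are bright in control replicate 2 of both tables, and the Csf1r neighbours most in tumor control replicate 2.

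Over all genes, libraries were compared by how many genes of at least 10 CPM or 10 FPKM stood 10-fold or more above every other library of the table. Tumor control replicate 2 had 197 such genes of 7172 (2.75%), among them all 10 members and 51 other genes of the lists. Tumor control replicate 1 had 15 (0.209%), SRC-3KO replicate 1 had 5 (0.0697%) and SRC-3KO replicate 2 had 4 (0.0558%), with 0 members among them. No-tumor control replicate 2 had 18 such genes of 9786 (0.184%), among them S100a8, S100a9, Ngp and Lcn2. Of these 18, 9 were antibody variable segments, and Chil3, Camp, Anxa1, Ccl24 and Tnfrsf23 made up the rest. Of the 18 genes 11 were among the 197 of tumor control replicate 2, which is 61.1% of the first list and 5.58% of the second. No-tumor control replicate 1 had 208 such genes (2.13%) with 0 members, so it stood apart by other genes. The no-tumor SRC-3KO libraries had 4 (0.0409%) and 1 (0.0102%), with 0 members.

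**Figure D4:**
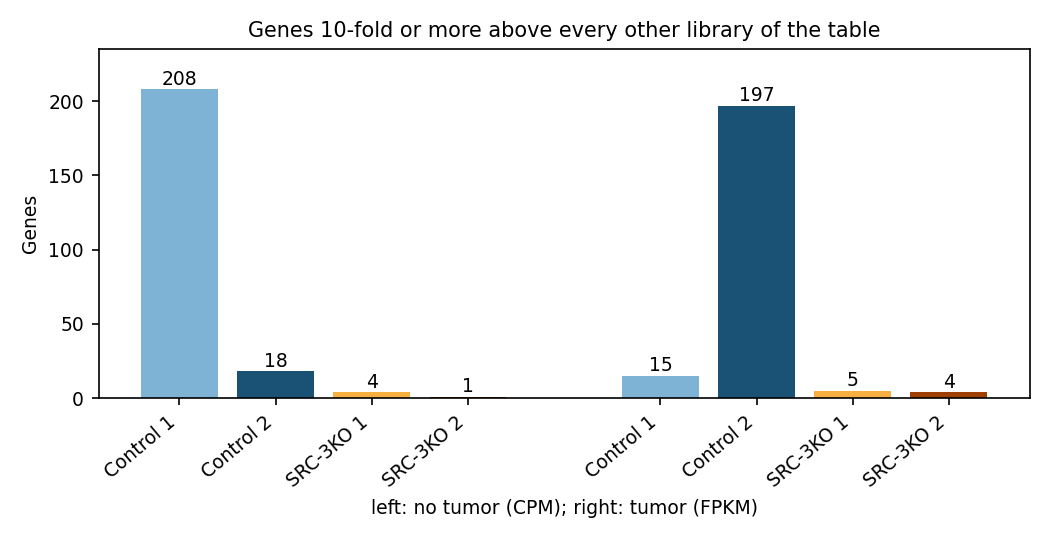
Number of genes (y axis) of at least 10 CPM (no tumor, left) or 10 FPKM (tumor, right) that stand 10-fold or more above every other library of the same table, for each library (x axis). No-tumor control replicate 1 has 208 and tumor control replicate 2 has 197, and the other 6 libraries have 1 to 18.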

How the data were processed

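The submitters' processing notes name FastQC, Trim Galore, STAR, featureCounts, edgeR and mm10, with no roles or versions. The deposited counts, for the tumor-free libraries, are whole numbers of reads per gene, in a table named for featureCounts. The deposited FPKM of the tumor libraries are StringTie gene abundances, per the file headers. No source used here gives the annotation release or strand setting, so reads of a gene and an antisense partner cannot be told apart. Positions and exon lengths came from GENCODE vM21 (55227 of 55487 genes matched by ID).

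Genotypes were compared within each table: edgeR 4.0.16 (R 4.3.3, filterByExpr, TMM factors 0.916 to 1.09, quasi-likelihood test, common dispersion 0.791), and limma 3.58.1 with an intensity trend on log2(FPKM + 1), for genes of at least 1 FPKM in at least 2 libraries. p-values were adjusted by Benjamini-Hochberg over all genes tested, with a threshold of 0.05.

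The members, the 16 gene lists (186 genes) and the tests were chosen with earlier results of these data known. Genes named were the members, 6 check genes, up to 4 per list with the highest level, up to 4 per list with the smallest p with a tumor, and the 8 nearest in pattern to S100a9 and to Csf1r, of which 1 is not reported here. On simulated counts for the no-tumor comparison (15481 genes, dispersion 0.1, well under the dispersion of these libraries), edgeR recovered 29% of genes changed by 1.5 and 100% of those changed by 3 on the log2 scale. On simulated FPKM for the tumor comparison (13146 genes), limma recovered 11% and 60%. Alternatives were DESeq2 1.42.0, other scalings, filters and pseudocounts, a replicate block and leaving out each library.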

Additional observations from a re-analysis of the deposited data

Results flagged for a closer look

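Of the 94 genes named by rule, 9 (9.57%) had both SRC-3KO libraries on one side of both controls without a tumor and on the other side with a tumor. Of the 17186 genes that reached 1 CPM or 1 FPKM in any library, 12.2% did so. The difference between the states was not tested, the tables differ in unit, and 0 of the 10 members were among the 9. Values are log2 ratios of group means plus 1, SRC-3KO over control. For the myeloid genes they were 0.81 (Csf2rb) and 1.10 (Lyn) in tumor-free mice, and -4.18 (Csf2rb) and -2.60 (Lyn) in tumor-bearing mice. Tumor control replicate 2 held 35.7 FPKM of Csf2rb and 24.3 FPKM of Lyn, and tumor control replicate 1 held 0.707 and 1.63 FPKM. For the integrin genes they were -1.61 (Itgal) and -1.13 (Tln1) in tumor-free mice, then 0.78 (Itgal) and 2.15 (Tln1). The Treg genes Foxp3 (-2.97 and 0.53), Cd4 (-0.76 and 0.42) and Ikzf4 (-0.92 and 1.24) took the same course, as did Slc22a17, a lipocalin receptor (-1.48 and 0.35). The no-tumor Foxp3 difference rests on control replicate 1, and by edgeR it was -3.01 with that library and -0.48 without it. Cd79b of B cells went from 2.36 to -0.60.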

How the results depend on the processing

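With 2 libraries a group and a common dispersion of 0.791, single libraries decided the counts of calls. Without a tumor edgeR called 0 genes, against 70 with no filter on low counts and 86 by DESeq2. Leaving out 1 library gave 0 to 7434, with 1 without control replicate 1 (the member S100a9) and 7434 without control replicate 2. Of the list genes 0 were called, against 3 with no filter, 2 by DESeq2 and 0 to 42 with 1 library left out (42 without control replicate 2). The median log2 difference of the tested members was 0.78 and ran from -5.52 (without SRC-3KO replicate 2) to 3.10 (without control replicate 2), over differing sets of members, since the filter passed 4 to 9 of them. It was -1.68 without control replicate 1.

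With a tumor limma called 14 genes, against 7 with a pseudocount of 0.1 and 1 with no filter. Leaving out 1 library gave 31 to 2510, with 459 without control replicate 1 and 2510 without control replicate 2. Of the list genes 3 were called, against 1 with a pseudocount of 0.1, 0 with no filter and 3 to 20 with 1 library left out (20 in the absence of control replicate 2, and 19 in that of replicate 1). The members' median of -5.06 ran from -7.28 (without control replicate 1) to -1.36 (without control replicate 2). Tyrobp and Fcer1g differed by -7.94 and -6.63 without control replicate 1, and by -1.08 and -1.63 without control replicate 2. The Ncoa3 difference ran from -0.56 (without SRC-3KO replicate 1) to 0.19 (without SRC-3KO replicate 2), where its direction reversed. The members' sums rescaled to equal library totals were 39.8 and 13265 in control replicates 1 and 2 and 17.5 and 13.5 in SRC-3KO replicates 1 and 2. That change follows from dividing by each library's FPKM sum. The cause of the other shifts was not tested. With a replicate block limma called 72 genes (28 higher and 44 lower), 5 of them on the lists and 0 of them members. The correlation of same-numbered libraries' deviations was 0.0357, and no label says that the numbers pair them. In the tumor table the depth is unknown, and without a tumor a count of 0 allows up to 3 counts.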
